A study of Oryza sativa with 20 samples.

Results

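Heat shock proteins and heat shock factors were followed in rice stem bases after induction of the transcription factor CRL1 and over time after mock treatment. The genes were chosen by name: every gene whose annotated symbol or RefSeq synonym starts with HSP or HSF, with or without the prefix Os and ignoring case. This gave 43 genes with a probe set, of 17905 genes measured on the array, and each gene was read from its probe set with the highest mean signal. They comprised 19 small heat shock proteins, 3 HSP90 genes (HSP81-1, HSP81-2 and HSP81-3), the HSP100 gene HSP101, and 20 heat shock factors, of which 12 were class A, 5 class B and 3 class C. No HSP40, HSP60 or HSP70 gene carried a matching name. A further 6 genes with a matching name had no probe set assigned and were not analysed here.

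Heat shock proteins are molecular chaperones. Small heat shock proteins bind unfolding proteins and keep them from aggregating, HSP101 pulls proteins back out of aggregates together with HSP70, and HSP90 holds signalling proteins and receptors in a state that can be activated. Heat shock factors are transcription factors that bind heat shock elements in the promoters of these genes; class A factors carry an activation motif that classes B and C lack. In plants several small heat shock proteins and factors are also expressed without heat, in development and under other stresses.

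All plants, controls included, were crl1 (crown rootless 1) mutants of the rice cultivar Taichung 65. CRL1 is a transcription factor of the LOB-domain family, and rice needs it to form crown roots. There were 3 independent lines, called CRL1 lines here, with the CRL1 cDNA in the dexamethasone-inducible vector pINDEX2. They were homozygous T2 lines with the T-DNA at a single locus, so each stands for 1 transformation event, and they had been selected for making crown roots after dexamethasone. Control line 1 was the untransformed mutant, and control line 2 was a mutant line carrying empty pINDEX2. The seedlings were kept at 26 °C under 12 h light per day, entered liquid half-strength Murashige and Skoog medium at 7 days, and were treated at 8 days with 10 µM dexamethasone or with mock (ethanol at 0.5‰). No heat treatment is named in the labels. Stem bases were taken after 4 h and 8 h, and 20 were pooled for each RNA. Each line gave 1 array for each treatment and time, so there were 3 arrays in each CRL1 line group, 2 in each control group and 20 in all. The design asks which genes respond early to CRL1.

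The lines are the replicates, and the p-values measure the spread between arrays of different lines. No detection calls were used, and precision is limited by how few arrays there are. CRL1 itself was not matched to any probe set, so its induction was not checked. Among tissue markers, the leaf gene CAB2R gave signals of 6454 to 9229 and the shoot meristem gene OSH1 439.6 to 1018. RBCS1, placed among the leaf markers by its name, was at most 5.8, below every array's median of 10.1 to 15.5. The other leaf markers OsrbcS, PORB and PORA were above the array's median on all 20 arrays. The arrays of control line 1 correlated less with the other arrays (median r of 0.916 to 0.947) than most others did (0.928 to 0.967). In pooled tissue, fewer cells of a type and less RNA per cell cannot be told apart.

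Of the 43 genes, 38 had a signal above the array's median on at least 3 arrays and were tested. The other 5 (HSFA2A, HSP16.6, HSP21.9, HSP23.2 and HSP26.7) gave signals of 0.3 to 15.3. Mean signals of the tested genes ran from 9.49 to 6097, with a median of 100.2. The HSP90 genes gave the highest signals. HSP81-3 had a median of 6209 over the 20 arrays (4749 to 7201), HSP81-2 ran from 3959 to 5534, and HSP81-1 from 1960 to 3030. Signals of different probe sets depend on their probes, so this order is one of signals and not of transcript amounts.

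Some genes are hard to tell apart. In the order of RefSeq genes HSP16.6, HSP17.9B, HSP16.9A and HSP16.9B lie in 1 run of small heat shock protein genes on chromosome 1, and HSP17.4, HSP18.1 and HSP17.7 are direct neighbours on chromosome 3, with HSP17.9A close by. The names of the tested probe sets of HSP26.2, HSP18.6 and HSP81-3 mark them as shared by several transcripts, and those of HSP18.8, HSP18.1 and HSFB4B as holding cross-matching probes, so near-identical copies may add to their signals. The RefSeq record of HSP16.9A also lists HSP16.9B as a synonym. The gene numbers of HSFA2C and HSFA2D also carry the names of acireductone dioxygenases. Their probe sets gave mean signals of 863.5 and 729.6, against 22.9 or less for other probe sets of the same gene numbers. Which transcript was measured is not known, and their values below are those of the probe sets.

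After 8 h of CRL1 induction the small heat shock proteins HSP26.2, HSP24.1, HSP17.4 and HSP18.8 were higher than after mock, and the small heat shock protein HSP22.3 was lower. HSP26.2 rose 4.89-fold and HSP24.1 3.62-fold, while HSP17.4 and HSP18.8 rose 2.25-fold and 1.79-fold. Thus 5 of the 15 tested small heat shock proteins changed, and none of the 19 heat shock factors, of the HSP90 genes or HSP101 passed the test. Calls were made with limma at a Benjamini-Hochberg adjusted p under 0.05 over all 32836 tested probe sets, on log2(signal + 1.7). Among all probe sets 3.47% were called higher and 2.91% lower in this comparison, against 4 and 1 of the 38 genes.

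In the 3 CRL1 lines HSP26.2 gave signals of 234.8, 259.9 and 206.0 after 8 h of mock and of 956.9, 1526.6 and 1024.9 after 8 h of dexamethasone. Every induced array was more than 3 times above every mock array. The group means were 233.6 ± 27.0 and 1169 ± 311 (SD, n = 3), and the log2 difference was 2.29 ± 0.31 (SE; limma adjusted p = 0.000318).

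HSP24.1 read 81.1, 89.5 and 63.4 after mock and 227.1, 482.8 and 209.3 after dexamethasone at 8 h. The groups did not overlap, and CRL1 line 2 was the highest. The share of all probe sets whose groups did not overlap was not counted, here or below. The means were 78.0 ± 13.3 and 306.4 ± 153.0 (SD, n = 3), a log2 difference of 1.86 ± 0.27 (limma adjusted p = 0.000477). HSP26.2 and HSP24.1 at 8 h passed the test in each of the 14 alternative fits, with adjusted p up to 0.0144 and 0.0141.

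HSP17.4 read 29.2, 21.0 and 24.7 after mock and 44.2, 55.6 and 78.2 after dexamethasone, again with no overlap. Its log2 difference was 1.17 ± 0.27 (limma adjusted p = 0.0144). It missed the test without CRL1 line 2 (adjusted p = 0.199) or line 3 (0.167). HSP18.8, a far brighter probe set, read 684.9, 544.9 and 576.8 after mock and 1003.8, 919.6 and 1332.2 after dexamethasone. These groups did not overlap either, and the log2 difference was 0.84 ± 0.21 (limma adjusted p = 0.0245). Without any 1 of the CRL1 lines HSP18.8 missed the test, with adjusted p of 0.06 without line 1 and 0.21 and 0.2 without lines 2 and 3. Leaving out 1 CRL1 line also lowered the calls over all probe sets at 4 h and 8 h, as given further below.

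HSP22.3 went the other way, with 63.1, 42.9 and 47.2 after mock and 23.8, 18.5 and 14.0 after dexamethasone. All induced arrays were below all mock arrays, and the log2 difference was -1.38 ± 0.37 (limma adjusted p = 0.0343). The call was lost without any 1 CRL1 line (adjusted p of 0.097 to 0.271), with no filter (0.0502) and with an offset at the median signal (0.0587). HSP22.3 was also lower after dexamethasone in both control lines, at 35.0 against 172.5 and 42.6 against 69.3 at 4 h, and at 49.4 against 60.2 and 27.3 against 66.5 at 8 h. Over all lines and times it was lower after dexamethasone in 9 of 10 pairs of arrays.

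**Figure D1:**
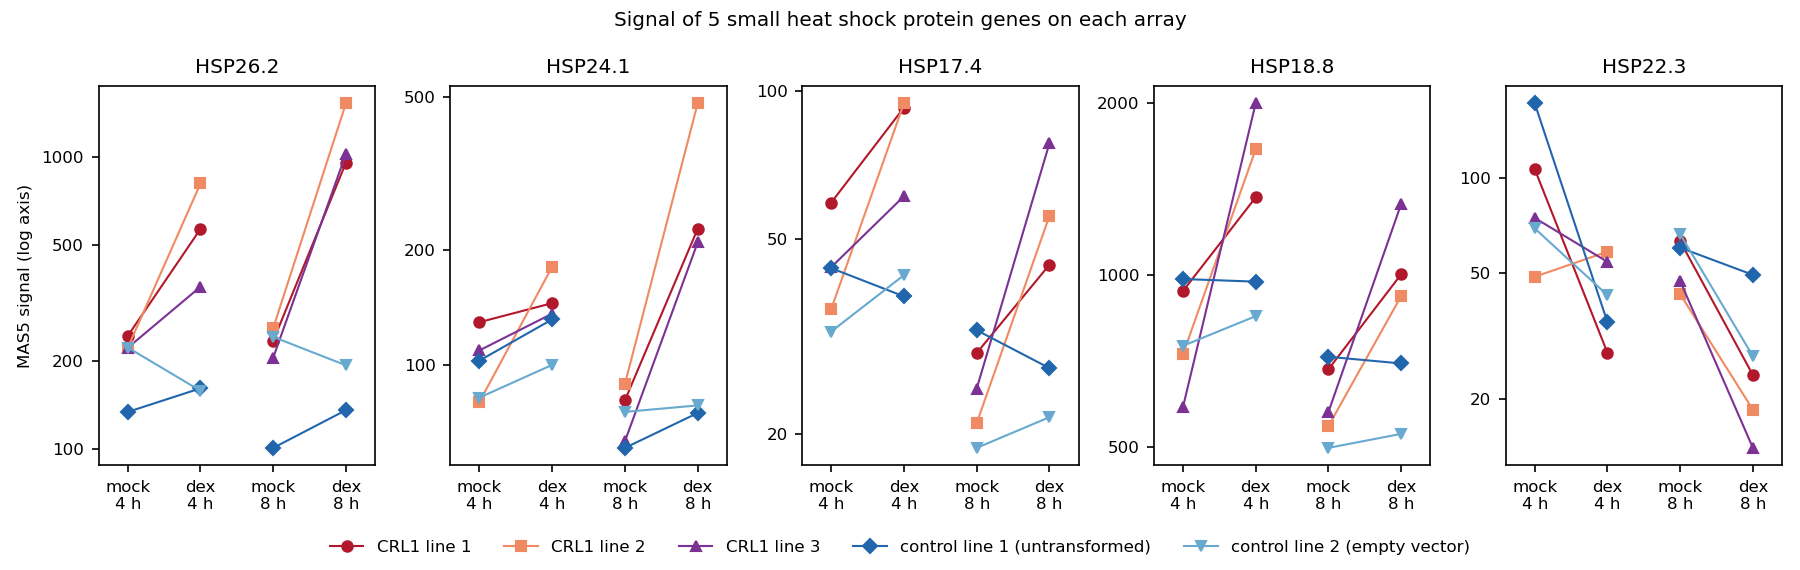
Signals of the 5 small heat shock proteins that passed the test at 8 h in the CRL1 lines, 1 panel per gene, on a log axis. Each point is 1 array, and a line joins the mock and dexamethasone arrays of 1 transgenic or control line at 1 time. HSP26.2 goes from 206.0 to 259.9 after mock to 956.9 to 1526.6 after dexamethasone at 8 h in the CRL1 lines, while the control lines stay between 101.1 and 242.3.

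The remaining small heat shock proteins were spread on both sides of 0 at 8 h. Over the 15 tested the median log2 difference was 0.32, against -0.04 over all tested probe sets; 9 were above 0 and 6 below. That median rested on few lines: it was 0.11 without CRL1 line 3, 0.66 without line 2 and 0.60 with array weights. HSP18.6 had a log2 difference of 1.04 ± 0.61 (limma adjusted p = 0.41), which came from CRL1 line 1 (35.0 to 92.1) and line 2 (16.8 to 63.4) and not from line 3 (24.6 to 23.9). HSP16.0 was at 0.95 ± 0.39 (adjusted p = 0.195). HSP18.0 was at -0.62 ± 0.47, and its other probe sets gave -0.06 and 0.07. HSP17.9B was at -0.54 ± 0.17 (adjusted p = 0.0803).

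The chromosome 3 neighbours of HSP17.4 did not share its value. At 8 h HSP18.1 was at -0.21 ± 0.30 on the log2 scale, HSP17.7 at -0.34 ± 0.16 and HSP17.9A at 0.07 ± 0.18, against 1.17 for HSP17.4, and none of these neighbours passed the test. The probe set of HSP18.1 holds cross-matching probes, and its sign changed without CRL1 line 2 and with the mean of its probe sets. In the chromosome 1 run HSP16.9A was at 0.32 ± 0.60 and HSP16.9B at -0.24 ± 0.29.

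Mock and dexamethasone arrays of a line belong together, and a fit with line as a block changed several calls at 8 h. It called 7 genes higher and 4 lower, where 5.29% and 5.8% of all probe sets were called higher and lower. The additional genes called higher were the class B factor HSFB1 (log2 difference 0.61, limma adjusted p = 0.0477 with the block and 0.326 without), the class C factor HSFC2A (0.99, 0.0184 and 0.138) and the HSP90 gene HSP81-1 (0.39, 0.0373 and 0.0807). The additional genes called lower were HSP101 (-0.99, 0.0204 and 0.269), HSP17.9B (-0.54, 0.0256 and 0.0803) and HSP18.0 (-0.62, 0.0269 and 0.56). In the control lines at 8 h HSP17.9B was at 0.07 ± 0.21 and HSP18.0 at -0.11 ± 0.57. Over all lines and times both were lower after dexamethasone in 9 pairs of arrays, as HSP22.3 was.

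The amount of change varied between lines in these genes. HSP101 read 31.2, 26.1 and 36.4 after mock and 13.1, 11.1 and 21.9 after dexamethasone at 8 h in CRL1 lines 1 to 3, lower in 3 of 3 lines with no overlap. In the control lines at 8 h it read 23.4 and 39.5 after mock and 15.3 and 47.8 after dexamethasone, lower in 1 line and higher in the other. HSFB1 read 236.6, 245.7 and 244.0 after mock and 501.8, 261.7 and 383.2 after dexamethasone, higher in 3 of 3 lines but by very different amounts. HSFC2A read 53.0, 60 and 59.7 after mock and 95.1, 163.9 and 100 after dexamethasone. These groups did not overlap, but HSFC2A was also higher after dexamethasone in control line 1 at 8 h (139.1 to 223.2).

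After 4 h of induction HSP18.8 was the only 1 of the 38 genes called, 2.24-fold higher in the CRL1 lines, and none was called lower; among all probe sets 0.414% were called higher and 0.0213% lower. HSP18.8 read 938.4, 727.6 and 588.0 after 4 h of mock and 1368.1, 1660.4 and 1998.1 after dexamethasone, without overlap. Its log2 difference was 1.16 ± 0.21 (limma adjusted p = 0.0172). The call was lost without CRL1 line 1 (adjusted p = 0.0863), line 2 (0.414) or line 3 (0.325).

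HSP26.2 had a slightly larger log2 difference at 4 h, 1.25 ± 0.31, that did not pass the test (limma adjusted p = 0.139). Its signals were 244.2, 222.5 and 222.4 after mock and 567.3, 811.4 and 359.7 after dexamethasone, so the groups did not overlap but the induced lines were spread widely. With line as a block it passed (adjusted p = 0.012), as did the class A factor HSFA4B (0.82 ± 0.22, adjusted p = 0.031 with the block and 0.194 without). The block called 3 genes higher and none lower at 4 h, where 0.901% and 0.177% of all probe sets were called. HSFA4B read 76.5, 83.7 and 79.1 after mock and 129.4, 113.2 and 196.4 after dexamethasone at 4 h. It was higher in each CRL1 line, while the control lines moved from 91.6 to 96.0 and from 87.9 to 93.0.

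HSP24.1 and HSP17.4 did not pass the test at 4 h. HSP24.1 read 129.6, 80.3 and 109.4 after mock and 145.3, 180.9 and 136.4 after dexamethasone (log2 difference 0.54 ± 0.27, limma adjusted p = 0.86). HSP17.4 read 59.2, 35.9 and 43.7 after mock and 92.5, 94.4 and 61.0 after dexamethasone (0.82 ± 0.27, adjusted p = 0.371). Both were higher in 3 of 3 lines. The dim HSP17.8 was at 0.73 ± 0.45. The lowest differences at 4 h were -0.69 ± 0.37 for HSP22.3, -0.48 ± 0.17 for HSP17.9B, -0.48 ± 0.29 for HSP16.9B and -0.27 ± 0.47 for HSP18.0, and none passed the test. In the control lines at 4 h these genes were at -1.46 ± 0.45, -0.46 ± 0.21, -0.07 ± 0.36 and -0.28 ± 0.57, in the same order.

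Whether the response of the CRL1 lines itself changed between 4 h and 8 h was tested as the difference of both responses, a comparison added after the values were seen. No gene passed with limma (0.00609% of all probe sets were called higher and 0.0% lower). With the block again none of these genes passed (0.143% and 0.0335% of all probe sets were called). An unadjusted limma p under 0.05 was reached by 2 of 38. The share of all probe sets at that unadjusted threshold was not counted, here or below. HSP24.1 had the largest change, 1.31 ± 0.38 on the log2 scale (adjusted p = 0.432). HSP26.2 was at 1.04 ± 0.44 (adjusted p = 0.841), HSP17.4 at 0.35 ± 0.38 and HSP18.8 at -0.33.

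In the control lines dexamethasone gave no call among the 38 genes at 4 h or at 8 h with limma, with or without the block, and 0.0% of all probe sets were called in either direction. An unadjusted limma p under 0.05 was reached by 2 genes at 4 h (HSP22.3 and HSP17.9B) and by 1 at 8 h (HSP18.1). The share of all probe sets at that threshold was not counted. HSP26.2 read 101.1 and 242.3 after 8 h of mock and 136.1 and 193.7 after dexamethasone in control lines 1 and 2, a log2 difference of 0.05 ± 0.39. HSP24.1 moved from 60.9 to 75.1 and from 75.6 to 78.6 (0.17 ± 0.33), HSP17.4 from 32.5 to 27.2 and from 18.7 to 21.6 (-0.03 ± 0.33), and HSP18.8 from 720.3 to 701.2 and from 499.2 to 528.2 (0.02 ± 0.26). HSP22.3 was at -1.46 ± 0.45 at 4 h and -0.76 ± 0.45 at 8 h.

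The difference between the response of the CRL1 lines and that of the control lines was tested in the same fit. At 8 h no gene passed with limma (0.569% of all probe sets were called higher and 0.14% lower). An unadjusted p under 0.05 was reached by 7 of 38. The share of all probe sets at that threshold was not counted at 8 h or at 4 h. HSP26.2 was nearest, with a difference of responses of 2.24 ± 0.50 on the log2 scale and an adjusted p of 0.051, followed by HSP24.1 with 1.68 ± 0.42 (0.0916) and HSP17.4 with 1.19 ± 0.42 (0.3). With line as a block HSP26.2 and HSP24.1 passed (adjusted p of 0.00439 and 0.0437), as HSP26.2 did with the stricter filter (0.0382) or the offset at the median (0.0393), where with the block 1.51% of all probe sets were called higher and 0.676% lower. HSP18.8 was at 0.82 (adjusted p = 0.402), and HSP22.3 at -0.62 ± 0.58, so for HSP22.3 the fall in the CRL1 lines was not separated from that in the control lines. At 4 h no gene passed (0.00914% and 0.0% of all probe sets called), 3 had an unadjusted p under 0.05, and HSP18.8 was at 1.09 ± 0.33 (adjusted p = 1.0).

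**Figure D2:**
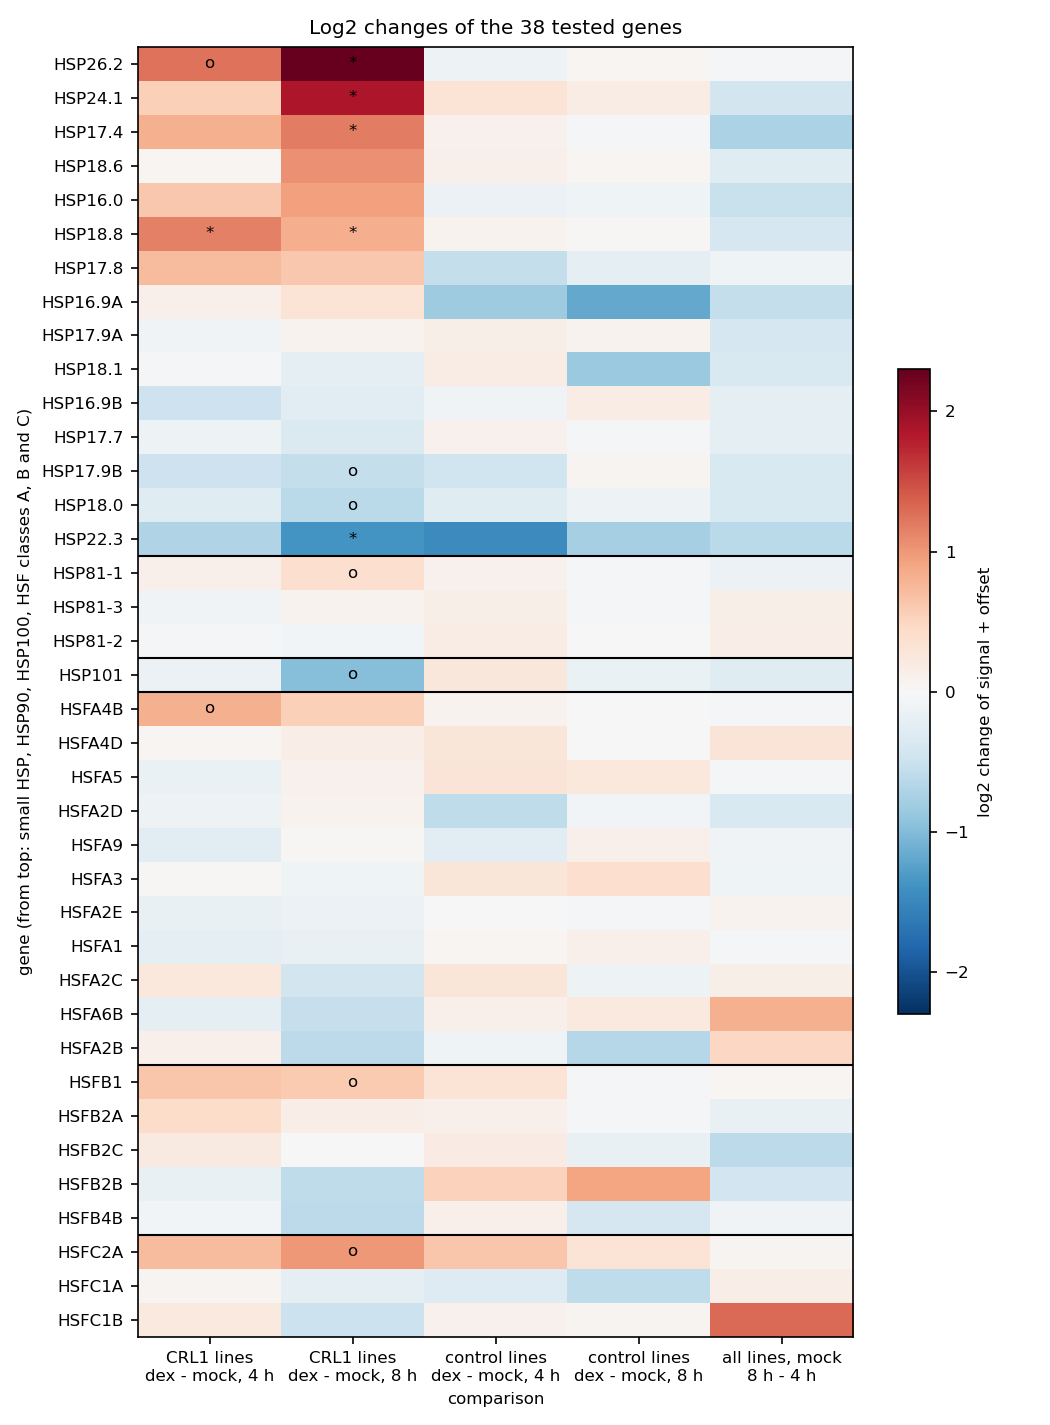
Log2 differences of the 38 tested genes in 5 comparisons, drawn as a heat map with genes in rows by class. An asterisk marks a limma adjusted p under 0.05, and a circle a call made only with line as a block. The asterisks lie among small heat shock proteins in the CRL1 line columns, with 1 at 4 h and 5 at 8 h.

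The heat shock factors as a class stayed near the level of all probe sets. At 8 h in the CRL1 lines the median log2 difference of the 19 tested factors was -0.09, against -0.04 over all tested probe sets. Among class A factors the differences ran from -0.59 for HSFA2B to 0.55 ± 0.22 for HSFA4B. HSFA6B was at -0.52 ± 0.22, HSFA2C at -0.43 ± 0.32, HSFA1 at -0.17 ± 0.13, HSFA2E at -0.13 ± 0.12 and HSFA3 at -0.09 ± 0.33. In tomato and Arabidopsis factors of the A1 group start the heat response, and A2 factors are among the most strongly heat-induced. HSFA9 (0.03 ± 0.30), HSFA2D (0.08 ± 0.27), HSFA5 (0.10 ± 0.23) and HSFA4D (0.15 ± 0.50), known as the spotted leaf gene SPL7, were above 0 by less than their errors.

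Among class B factors HSFB1 was at 0.61 ± 0.31, HSFB2A at 0.16 ± 0.19, HSFB2C at 0.01 ± 0.23, HSFB2B at -0.59 ± 0.50 and HSFB4B at -0.59 ± 0.30. The probe sets of HSFB2C differed: its other tested ones were at 1.155 ± 0.579 and 0.323 ± 0.322, and neither was called. In Arabidopsis the HSFB4 gene SCHIZORIZA sets cell fates in the root tip. HSFB4B read 174.3, 150.5 and 214.6 after mock and 117.9, 98.7 and 139.0 after dexamethasone at 8 h in the CRL1 lines. These groups did not overlap, with 3 of 3 lines lower (limma adjusted p = 0.314), but the share of all probe sets without overlap was not counted. The other tested probe set of HSFB4B was at -0.23 ± 0.26. By the probe set used here, HSFB4B gave these control signals at 8 h. It was also lower after dexamethasone in control line 1 (158.3 to 78.2) and higher in control line 2 (203.4 to 241.0). The class C factors HSFC1A (-0.22 ± 0.28), HSFC1B (-0.49 ± 0.40) and HSFC2A (0.99 ± 0.37) did not pass the test. Besides the fit with the block, HSFC2A passed when only the compared groups were fitted (adjusted p = 0.0469) or either control line was left out (0.0227 and 0.0222), and its adjusted p was up to 0.627 without 1 CRL1 line.

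At 4 h the factors with the largest log2 differences were HSFA4B, HSFC2A (0.73 ± 0.37), HSFB1 (0.64 ± 0.31) and HSFB2A (0.42 ± 0.19), each higher in 3 of 3 CRL1 lines and in 2 of 2 control lines. The other 15 factors lay between -0.24 ± 0.30 for HSFA9 and 0.25 ± 0.32 for HSFA2C.

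Genes that work with these chaperones did not pass the test at either time. Among all probe sets 0.414% were called higher and 0.0213% lower at 4 h, and 3.47% and 2.91% at 8 h. Of 9 partners measured (J-domain proteins such as DJA6 and DJB6, the HSP90 co-chaperones SGT1 and RAR1, and the organelle disaggregases CLPB-C and CLPB-M) none was called, with medians of 0.05 at 4 h and 0.18 at 8 h. SGT1 was at 0.32 ± 0.16 and RAR1 at 0.34 ± 0.15 at 8 h. None of 21 tested genes of protein folding in the endoplasmic reticulum was called (median -0.02 at 8 h). Among other heat-responsive genes, none of 5 tested was called, and DREB2A, a regulator of heat and drought genes, was at 0.56 ± 0.25 at 8 h (limma adjusted p = 0.229).

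Markers of other tissues were read in the same arrays, at 8 h unless 4 h is named. The summed signal of the 3 shoot meristem markers was 985 to 1204 after mock and 636.4 to 925.3 after dexamethasone in the CRL1 lines, without overlap. None of these markers was called. In the control lines their sums overlapped, at 1419 to 1446 after mock and 996.8 to 1600.2 after dexamethasone. For 6 root markers the sums were 421.2 to 896.9 and 333.6 to 481.8 in the CRL1 lines, and 1 of them, NRAMP5, fell (-1.42 on the log2 scale, limma adjusted p = 6.66e-05). All 6 root markers had log2 differences below 0 in the control lines as well, with a median of -0.68 against -0.39 in the CRL1 lines, and their control sums were 837.9 to 1622.3 and 520.7 to 950.8. At 4 h the root markers went the other way in the CRL1 lines, with 5 above 0, 1 below and a median of 0.81. In the control lines at 4 h 2 were above 0 and 4 below, with a median of -0.14. No root marker was called at 4 h. The 2 vascular markers summed to 275.3 to 312.3 after mock and 351.0 to 437.5 after dexamethasone in the CRL1 lines, and to 365.1 to 758.3 and 311.6 to 1307 in the control lines. The sums of the 5 leaf markers overlapped, at 10033 to 13111 and 10916 to 11189. No vascular or leaf marker was called, and 2 of 4 tested leaf markers were called lower with the block. Among all probe sets 2.91% were called lower without the block and 5.8% with it. Of 8 genes known to respond to low oxygen, 1 was called, a pyruvate decarboxylase gene that fell (-0.74, adjusted p = 0.0283). Their part in the heat shock results was not tested.

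After mock treatment, tested small heat shock proteins were lower at 8 h than at 4 h on average over the 5 lines, but none passed the test alone. Across the 38 genes limma called 0 (0.0152% of all probe sets were called higher and 0.0244% lower), and 8 had an unadjusted p under 0.05. The share of all probe sets at that unadjusted threshold was not counted. The block called 0 as well, where 0.0792% and 0.155% of all probe sets were called. The mean log2 difference was below 0 for 15 of 15 tested small heat shock proteins, from -0.73 to -0.05 with a median of -0.35, against a median of 0.02 over all tested probe sets. Of the 15, 13 were below 0 in CRL1 line 1, 9 in line 2, 15 in line 3, 11 in control line 1 and 14 in control line 2. The heat shock factors were split, with 10 of 19 below 0 and a median of -0.02. Time since treatment and time of day cannot be told apart.

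HSP17.4 had the lowest value, -0.73 ± 0.21 (limma adjusted p = 0.57). It read 59.2, 35.9, 43.7, 43.5 and 32.3 at 4 h in CRL1 lines 1 to 3 and control lines 1 and 2, and 29.2, 21.0, 24.7, 32.5 and 18.7 at 8 h. Each of the 5 lines was lower at 8 h. HSP22.3 (-0.62 ± 0.28) and HSP18.8 (-0.39 ± 0.16) were lower in 5 of 5 lines too, while HSP16.9A (-0.55 ± 0.46) and HSP16.0 (-0.52 ± 0.30) were lower in 4 of 5. HSP26.2 was level, at -0.05 ± 0.24. In CRL1 line 1 the induced HSP17.4 signal at 8 h (44.2) was below its 4 h mock signal (59.2), which was not so in the other CRL1 lines (55.6 against 35.9 and 78.2 against 43.7).

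Some heat shock factors had higher signals at 8 h than at 4 h after mock, without passing the test over all 5 lines. HSFC1B, which is needed for salt tolerance in rice, read 63.6, 61.0, 75.3, 82.6 and 61.5 at 4 h and 203.9, 154.8, 235.4, 95.3 and 209.3 at 8 h, in the same order of lines. It was higher in 5 of 5 lines without overlap, least in control line 1. How many of all probe sets separated in the same way was not counted. The log2 difference was 1.31 ± 0.31 (limma adjusted p = 0.308), and without control line 1 it was 1.62 (adjusted p = 0.0383, with 0.0383 to 1.0 over the alternatives).

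HSFA6B read 18.6, 25.2, 26.8, 34.3 and 24.6 at 4 h and 42.2, 64.0, 48.0, 42.3 and 38.8 at 8 h. It was also higher in each line without overlap (0.82 ± 0.17, limma adjusted p = 0.159). HSFA2B was higher in 5 of 5 lines (0.48 ± 0.24), and HSFA4D (0.30 ± 0.39) and HSP81-2 (0.16 ± 0.09) in 4 of 5. HSFB2C was lower in 5 of 5 (-0.60 ± 0.18, adjusted p = 0.614), with 89.4, 79.1, 104.5, 104.2 and 107.3 at 4 h and 56.1, 69.8, 49.3, 94.5 and 55.0 at 8 h. The other factors lay between -0.44 ± 0.38 for HSFB2B and 0.15 ± 0.22 for HSFC1A, with -0.34 ± 0.21 for HSFA2D.

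**Figure D3:**
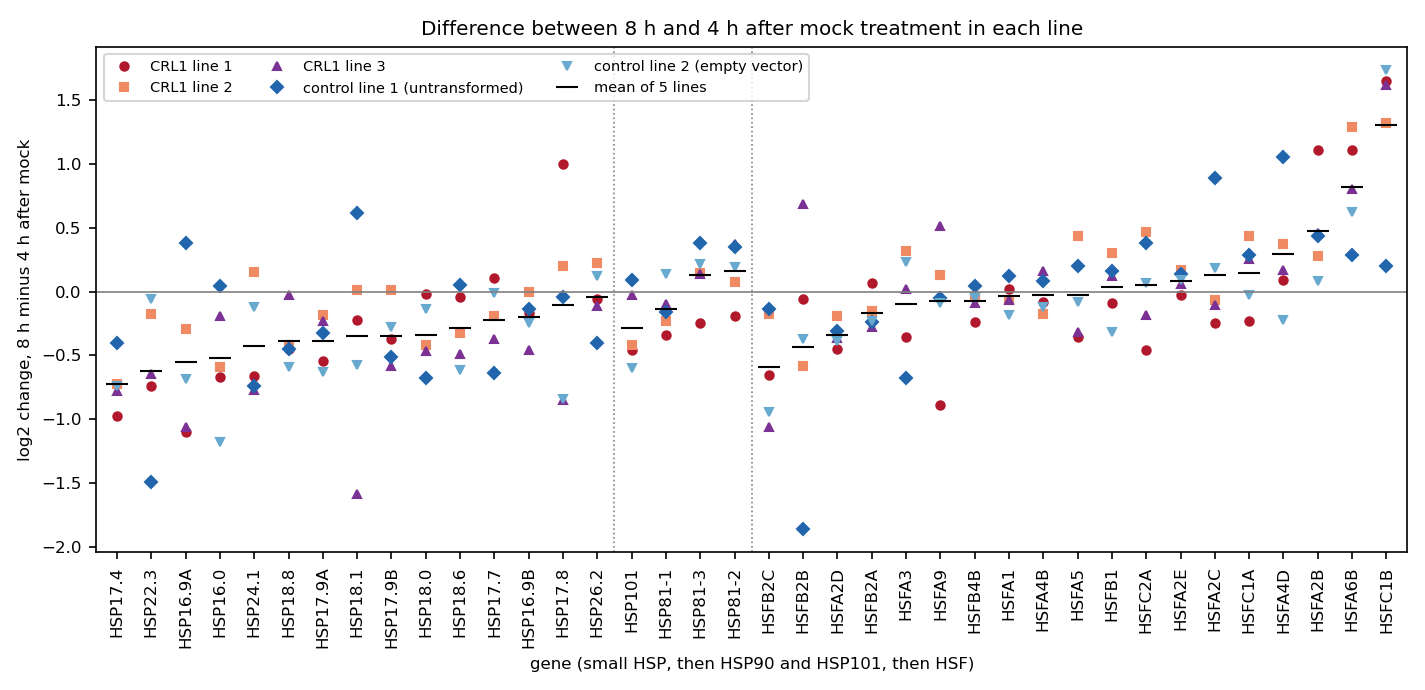
Log2 difference between 8 h and 4 h after mock for each tested gene, with 1 point per line and a bar for the mean of the fit. The means of all 15 tested small heat shock proteins lie below 0, from -0.73 to -0.05, while HSFC1B and HSFA6B lie highest at 1.31 and 0.82.

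The time change did not differ detectably between CRL1 and control lines. Limma called 0 of 38 genes in the CRL1 lines alone, in the control lines alone and for the difference between them. In each, 0.0% of all probe sets were called. An unadjusted limma p under 0.05 was reached by 4, 1 and 0 genes, and the share of all probe sets was not counted. With the block 0 of the 38 were called in the CRL1 lines alone, where 0.0213% of all probe sets were called higher and 0.0335% lower. In the CRL1 lines alone HSFC1B was at 1.53 on the log2 scale, and it passed when only those groups were fitted (adjusted p = 0.0154). Among the lists measured beside these genes, chaperone partners had a median of 0.04 and endoplasmic reticulum folding genes 0.00, each with 0 called. The 8 low oxygen genes were all above 0, with a median of 0.62 and 0 called.

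After mock treatment, control line 1 stood outside the other 8 mock arrays at both times for 10 of the 38 genes, a description added after the values were seen: 4 genes were above on both arrays and 6 below. Among all tested probe sets 15.6% were above and 12.2% below, so the share among these genes was near that of the array as a whole. HSFA4D gave 47.0 and 99.7 in control line 1 against 15.7 to 25.0 in the other lines. HSFB1 gave 388.6 and 435.6 against 198.5 to 285.9, and HSFC2A 106.1 and 139.1 against 42.8 to 78.4. HSP26.2 gave 134.2 and 101.1 against 206.0 to 259.9, and HSP18.0 gave 214.1 and 133.0 against 259.2 to 429.1. HSP101 was lower as well, at 21.9 and 23.4 against 26.1 to 60.6. The line is the untransformed mutant and gave 1 array per treatment and time, so these values rest on 1 line.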

How the data were processed

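RNA of 20 stem base samples was biotin-labelled and hybridised to Affymetrix rice arrays. The authors deposited linear intensity values, which are MAS5 signals. The submitters' processing notes name Affymetrix Expression Console for this step, and its version is not given in the sources used here. The 2% trimmed mean of the signals was 100 when averaged over the 20 arrays. Gene names are those of the platform annotation, brought up to date through RefSeq gene numbers (assembly ASM3414082v1). Of 57258 probe sets, 22436 had a single gene listed, 95 had more than 1 and 34727 had no gene listed. Coordinates are not printed because the genome build behind the array is not given in the sources used here.

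Values were log2(signal + 1.7), the offset being the 20th percentile of all signals, so differences of dim genes are understated. Probe sets above the array's median on at least 3 arrays were tested (32836) with limma 3.58.1 in R 4.3.3: 8 group means, trended empirical Bayes variance, 12 residual degrees of freedom and Benjamini-Hochberg adjustment. The fit was tested on simulated data. Errors of log2 differences are standard errors and those of signals SDs.

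Arrays of a line are paired by the labels, since they came from the same transgenic line. Deviations of the CRL1 arrays from their group means correlated at -0.05 to 0.22 within lines and at -0.20 to 0.12 between lines. In the control lines these correlations were 0.45 to 0.62 within lines, so arrays of a control line tended to deviate together. With only 2 control lines, the values between lines are the same with the sign reversed. The fit with line as a block had 9 residual degrees of freedom.

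The genes and lists were chosen with earlier results of these data known. Genes named with values were HSP26.2, HSP24.1, HSP17.4 and HSP18.8, every gene called, the 5 largest differences in each direction for each CRL1 comparison and for time, the 3 highest signals and every tested factor; neighbours of HSP17.4 and HSP16.9A, HSP18.8 and HSP26.2 over time, genes called only with the block, and the partner and marker genes were added to this rule. The alternatives tried were a fit without the offset, an offset at the median signal (11.8), a fit without the filter, a filter at the 75th percentile, quantile normalization, a fit of the compared groups alone, array weights, line as a block, the mean of a gene's probe sets, and fits that left out 1 line each. Tables were made in Python 3.11.15 with pandas 2.3.3 and numpy 2.4.6, and plots with matplotlib 3.10.9.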

Additional observations from a re-analysis of the deposited data

Results flagged for a closer look

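At 8 h the response of HSP26.2 to dexamethasone was larger in the CRL1 lines than in the control lines by 2.24 on the log2 scale when line was a block (limma adjusted p = 0.00439), while the fit without the block gave an adjusted p of 0.051. It was higher after dexamethasone in 3 of 3 CRL1 lines and in 1 of 2 control lines. The response of HSP24.1 was larger by 1.68 with the block (adjusted p = 0.0437, and 0.0916 without). It was higher in 3 of 3 CRL1 lines and in 2 of 2 control lines.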

How the results depend on the processing

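In the CRL1 lines at 4 h, 1 gene was called, against 3 with line as a replicate block and 3 with array weights, and 0 to 2 when 1 line was left out (0 without any CRL1 line, 2 without either control line). At 8 h 5 were called, against 3 with the stricter filter, 11 with the block, and 2 to 7 when 1 line was left out. Over all probe sets 136 were called higher and 7 lower at 4 h. The block called 296 and 58, and array weights 332 and 82. Without CRL1 line 1, 2 or 3 these counts were 12 and 0, 14 and 0, and 63 and 3. At 8 h they were 1140 and 955, and without these lines 471 and 347, 337 and 141, and 651 and 292. The stricter filter gave 889 and 790. For the difference of responses at 8 h 0 were called, against 1 with the offset at the median, 1 with the stricter filter and 2 with the block. Over all probe sets these called 240 and 52, 193 and 56, and 495 and 222. For time after mock 0 were called, against 0 to 1 when 1 line was left out; in the CRL1 lines alone 1 was called when only the groups compared were fitted and 1 with array weights. Over all probe sets the first of these fits called 30 higher and 21 lower, and the second 21 and 19. The other 136 counts of heat shock genes under the alternatives were within 1.5 times of the main count, and no called difference changed sign. Among differences that were not called, some changed sign under at least 1 alternative. In the CRL1 lines these were 14 of the 38 genes at 4 h and 13 at 8 h, and over time after mock 10. They were at most 0.24, 0.32 and 0.13 in size on the log2 scale. In the control lines 16 genes changed sign at 4 h and 29 at 8 h, at most 0.83 and 0.58 in size. For the difference of responses it was 18 and 13 genes, at most 0.93 and 0.85 in size. The block changed no call of a heat shock gene other than those given above. Over the alternatives the limma adjusted p of the difference of responses at 8 h ran from 0.00439 to 0.216 for HSP26.2 and from 0.0437 to 0.432 for HSP24.1, and that of HSP26.2 in the CRL1 lines at 4 h from 0.0118 to 1.0. The cause of these differences was not tested. Some of the fits also had fewer arrays or genes. The stricter filter removed HSP17.4 and HSP22.3, so they were not tested in that fit. The 15 small heat shock proteins kept a mean below 0 for time after mock, except 14 of 15 without control line 1, control line 2 or CRL1 line 3; the stricter filter left 8 of them, all below 0. All the alternatives listed were run. With 3 and 2 lines, small changes of dim genes could not be separated from the spread between lines.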

Other observations

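Of the 43 genes, 14 had more than 1 probe set. Among their 21 other probe sets 14 were tested, and limma called 0 of these in the CRL1 lines at 4 h and at 8 h.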
